A study of Mus musculus with 4 samples.

Results

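The mRNAs described here encode the proteins of meiotic chromosomes: the synaptonemal complex, meiotic cohesin, the machinery of recombination, and factors of meiotic entry. They were chosen by gene symbol, from 35 symbols, all of which were found among the 50600 gene models of the data. One symbol, Spata22, names 2 models, so there were 36 models in all. All 35 symbols had counts in at least 1 library. RNA was measured after immunoprecipitation (RIP), in which an antibody on beads pulls a protein and its bound RNAs out of a lysate. There were 2 libraries from a LARP7 RIP, made with an antibody to the La-related protein LARP7, and 2 from an IgG RIP, whose non-specific antibody measures the background of RNAs that stick to it. All 4 libraries came from testes of C57BL/6 mice aged 8 weeks, with no other treatment or genotype named in the labels. The series text calls the libraries of a group biological replicates and does not tie them to separate animals, so the p-values measure the spread between libraries, which may be technical.

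In the first meiotic prophase each pair of homologous chromosomes is joined along its length by the synaptonemal complex, a zipper-like protein structure built on axes that cohesin organises. On these axes programmed DNA breaks are made and repaired from the homologue, and some repairs become crossovers, which later hold the homologues together on the spindle. In the adult testis these proteins are made mainly in spermatocytes. LARP7 is known for binding the 3′ ends of short RNA polymerase III transcripts such as 7SK, a nuclear RNA that holds back transcription elongation.

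Fragments of mRNA are what these libraries could hold, since RNAs of 15 to 300 nt were selected. The unit of the deposited files is the expected count, an estimate of reads per gene model that need not be whole. A count per model does not show which part of an mRNA the fragments came from. Libraries held 4411271 to 6994514 expected counts. Protein-coding models took 14.9% and 20.4% of the counts in the LARP7 libraries, against 42.3% and 38.3% in the IgG libraries. The main scaling was TMM, which assumes that most genes do not change. CPM, counts relative to library size, are TMM-scaled below. With library totals as the scale instead, the all-gene median of log2 fold changes shifted by -1.42, and 6 of the 24 meiotic models tested changed sign.

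Few of the meiotic mRNAs were called with TMM scaling, and many were lower with library totals, as were protein-coding genes at large. Of the 36 models, 24 had enough counts to be tested. With TMM scaling 2 of them, Hormad2 and Prdm9, were higher in the LARP7 RIP, and 0 were lower (edgeR quasi-likelihood test, Benjamini-Hochberg adjusted p under 0.05 over 12234 genes). That is 8.33% of the members tested, against 11.0% of the 9932 protein-coding genes tested that were higher and 10.5% that were lower. Over all genes tested the shares were 14.5% and 9.69%. At an unadjusted p under 0.05, 2 members were higher and 3 lower (Syce1, Syce2 and Spo11). The median log2 fold change was -0.34 for the 24 members and -0.25 for protein-coding genes. With library totals 0 members were higher and 14 were lower, against 1.99% and 52.1% of protein-coding genes and 3.95% and 47.1% of all genes tested.

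**Figure D1:**
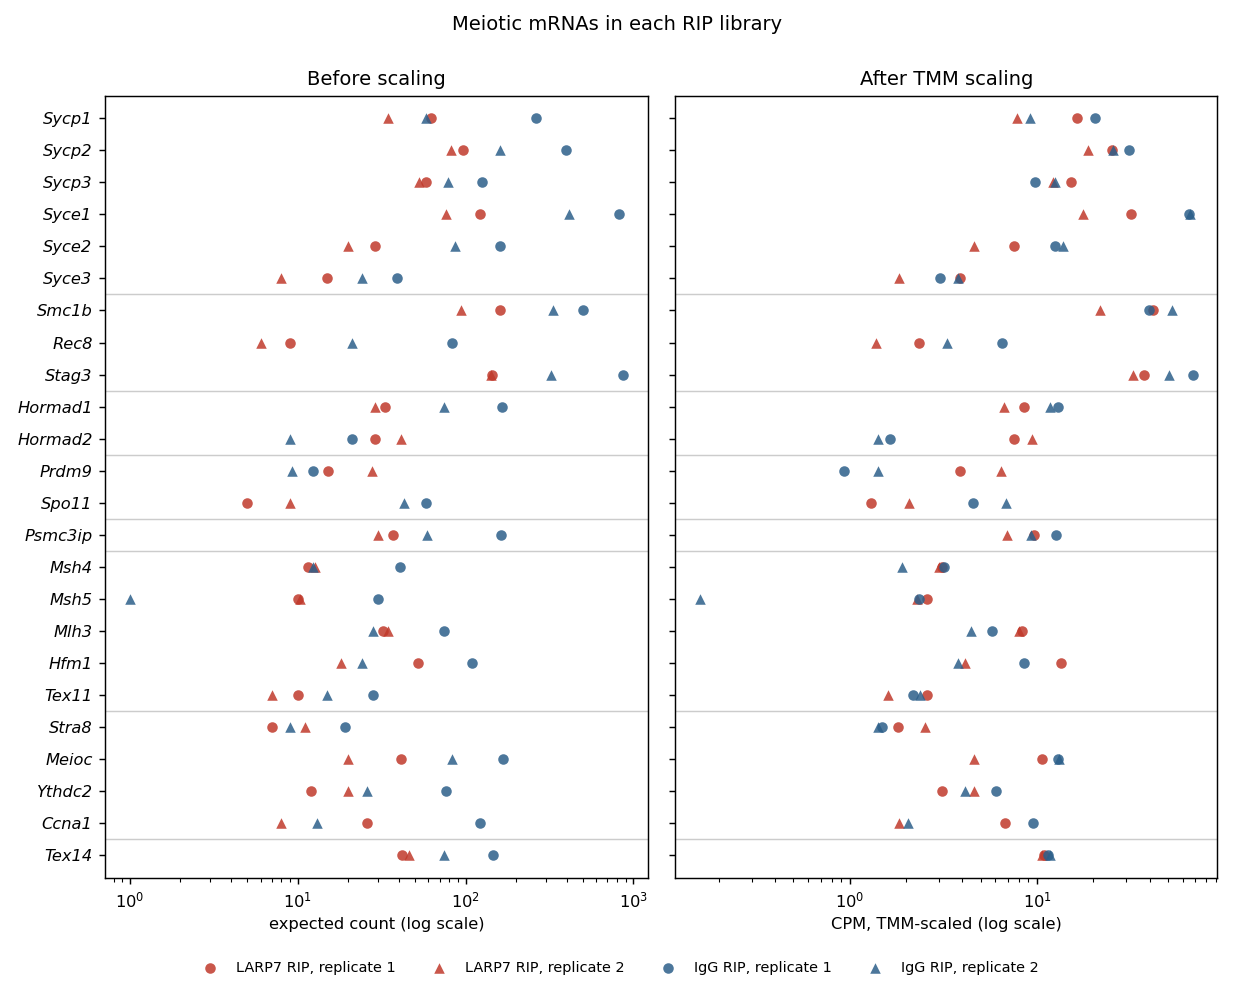
Expected counts (left) and TMM-scaled CPM (right), both on log axes, of the 24 tested meiotic mRNAs in each library; red marks are LARP7 libraries, blue marks IgG libraries, circles replicate 1 and triangles replicate 2, and grey lines separate the roles. Hormad2 and Prdm9 are the members whose LARP7 libraries lie to the right of the IgG libraries in both panels; for Syce1, with 122 and 77 counts against 826 and 415 in the IgG libraries, the LARP7 marks lie to the left.

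The HORMA domain proteins HORMAD1 and HORMAD2 coat chromosome axes that have not yet paired, and the ATPase TRIP13 removes them once pairing is done. Hormad2 (ENSMUSG00000020419.11, chromosome 11, 4345801 to 4441198, GRCm38.p6) was counted 29 and 41 times in the LARP7 libraries, against 21 and 9 in the IgG libraries. As CPM these were 7.54 and 9.41, against 1.64 and 1.42. The LARP7 libraries were higher in counts and in CPM, and the groups did not overlap on either scale. Hormad2 averaged 8.47 ± 1.33 CPM in the LARP7 RIP and 1.53 ± 0.153 CPM in the IgG RIP (SD, n = 2 each). The difference was 5.44-fold, with a log2 fold change of 2.44 (SE 0.55, edgeR adjusted p = 0.014). It was 1.03 on the log2 scale with library totals, where it was not called (edgeR adjusted p = 0.235). In the deposited TPM, a level per length relative to all RNAs of a library, the direction was reversed. That length is estimated per library and ran from 545 to 1835 bases for Hormad2. Its TPM therefore moves with length and counts, and also with the other RNAs of the library. Over all members the ratio of LARP7 to IgG was 0.0955 in TPM and 0.262 as a share of counts. Smc1b, with 4038 bases in every library, had 0.14 and 0.15 TPM in the LARP7 libraries, against 1.68 and 1.15 TPM. What set the reversal was not tested. Hormad2 had 0.06 and 0.15 TPM in the LARP7 libraries, against 0.19 and 0.26 TPM in the IgG libraries, with no overlap. The limma difference was -0.69 on the log2(TPM + 0.1) scale (limma adjusted p = 0.299) and -0.15 on log2(TPM + 1), a pseudocount larger than all of these values. The call was lost without LARP7 replicate 2 (2.28, edgeR adjusted p = 0.0999) and kept without each of the other 3 libraries. In each such fit 1 group has a single library, which is assumed to vary like the other group, so these fits are a weak check.

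Hormad1 ran the other way without a call. It had 33 and 29 counts in the LARP7 libraries, against 166 and 74 in the IgG libraries, and 8.57 and 6.66 CPM against 13.0 and 11.7 CPM. Its groups did not overlap on either scale, and its log2 fold change was -0.70 (SE 0.43, edgeR adjusted p = 0.247) with TMM and -2.14 (edgeR adjusted p = 0.000592) with library totals. The difference between Hormad2 and Hormad1 was not tested. Trip13 had 8 and 4 counts in the LARP7 libraries, against 21 and 4 in the IgG libraries, too few to be tested.

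Breaks are placed by PRDM9, a histone methyltransferase whose zinc fingers choose the recombination hotspots, and are cut by SPO11, with MEI1 and MEI4 among the proteins needed for cutting. Prdm9 (ENSMUSG00000051977.14, chromosome 17, 15543072 to 15564374) was counted 15.1 and 27.6 times in the LARP7 libraries, against 12.4 and 9.22 in the IgG libraries. In CPM they stood at 3.90 and 6.43, against 0.937 and 1.42, with no overlap on either scale. Prdm9 averaged 5.16 ± 1.79 CPM in the LARP7 RIP and 1.18 ± 0.344 CPM in the IgG RIP (SD, n = 2 each). The ratio was 4.44, a log2 fold change of 2.15 (SE 0.67), and it passed the test with little to spare (edgeR adjusted p = 0.0394). The direction held with library totals (0.78, edgeR adjusted p = 0.44) and was reversed in TPM, with no call in either. Prdm9 had 0.02 and 0.06 TPM in the LARP7 libraries, against 0.05 and 0.11 TPM in the IgG libraries, which overlapped. Its length per library ran from 1224 to 3460 bases. The limma difference was -0.36 on the log2(TPM + 0.1) scale (limma adjusted p = 0.421) and -0.05 on log2(TPM + 1). The call was lost without LARP7 replicate 1 (2.44, edgeR adjusted p = 0.0793), LARP7 replicate 2 (1.73, 0.399) or IgG replicate 1 (1.84, 0.105), and also with DESeq2 (DESeq2 adjusted p = 0.0549) or without a filter on low counts (0.0522). RSEM shares out reads that map to several genes, and its posterior SD reached 0.0922 of the count for Prdm9 and 0 for Hormad2.

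Spo11 lay on the other side. It had 5 and 9 counts in the LARP7 libraries, against 58 and 43 in the IgG libraries. Scaled, these were 1.3 and 2.07, against 4.53 and 6.80, and the groups did not overlap. Spo11 had the lowest log2 fold change of the 24 members, -1.72 (SE 0.63), and missed the threshold with TMM (edgeR adjusted p = 0.0649). It was -3.08 with library totals (edgeR adjusted p = 0.000248). Spo11 would not have passed the count filter on the LARP7 libraries alone, and was tested because its IgG libraries were high. Spo11 was not called with DESeq2 (-1.68, DESeq2 adjusted p = 0.154) or with TMM over protein-coding genes (-1.54, edgeR adjusted p = 0.0987). Leaving out LARP7 replicate 1, LARP7 replicate 2, IgG replicate 1 or IgG replicate 2 gave -1.45, -2.10, -1.99 and -1.36. Prdm9 and Spo11, which act at the same step, thus had values of opposite sign, and the difference between them was not tested. Mei1 had 4 and 5 counts against 7 and 11 in the IgG libraries. Mei4 had 1.52 and 0 against 2 and 0, the fewest of the 36 models.

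The synaptonemal complex mRNAs held 5 of 6 tested members below 0 with TMM and all 6 below 0 with library totals, 4 of them called there. Of the 9932 protein-coding genes 5608 lay below 0 with TMM and 8440 with library totals, where 52.1% were called lower. SYCE1, SYCE2, SYCE3 and TEX12 build the central element, the innermost rail of the zipper. Syce1 (ENSMUSG00000025480.5, chromosome 7, 140777229 to 140787854) was counted 122 and 77 times in the LARP7 libraries, against 826 and 415 in the IgG libraries. The CPM values were 31.7 and 17.7, against 64.5 and 65.7, and the groups were far apart. Syce1 averaged 24.7 ± 9.92 CPM in the LARP7 RIP and 65.1 ± 0.799 CPM in the IgG RIP (SD, n = 2 each), a log2 fold change of -1.40 (SE 0.47, edgeR adjusted p = 0.0512). It thus missed the threshold narrowly. It passed with library totals (-2.85, edgeR adjusted p = 5.87e-06) and with DESeq2 (-1.35, DESeq2 adjusted p = 0.0384). With TMM over protein-coding genes it did not pass (-1.24, edgeR adjusted p = 0.0767). Leaving out LARP7 replicate 1, LARP7 replicate 2, IgG replicate 1 or IgG replicate 2 gave -1.89, -1.03, -1.40 and -1.33. Syce1 also had the highest level per length of the 36 models, 0.795 ± 0.148 TPM in the LARP7 RIP and 12.5 ± 1.15 TPM in the IgG RIP (SD, n = 2 each).

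Syce2 had 29 and 20 counts in the LARP7 libraries, against 160 and 87 in the IgG libraries. As CPM these were 7.54 and 4.59, against 12.5 and 13.8, with no overlap (log2 fold change -1.12, SE 0.45, edgeR adjusted p = 0.0938). With library totals it was -2.55 and called (edgeR adjusted p = 5.65e-05). Syce3 had 15 and 8 counts against 39 and 24 in the IgG libraries, and its CPM groups overlapped (log2 fold change -0.26, edgeR adjusted p = 0.791). Tex12 was too low to be tested, with 3 and 5 counts against 15 and 3. The central element mRNAs therefore ranged from near 0 to below -1 on the log2 scale.

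SYCP1 forms the transverse filaments that span the gap between homologues, and SYCP2 and SYCP3 form the lateral elements. Sycp1 had 62.6 and 34.4 counts in the LARP7 libraries, against 263 and 58 in the IgG libraries. As CPM it had 16.4 and 7.80, against 20.5 and 9.18, so the groups overlapped (log2 fold change -0.31, SE 0.52, edgeR adjusted p = 0.677). Replicates of each group lay farther apart than the group means. Sycp2 had 97 and 82 counts in the LARP7 libraries, against 395 and 161 in the IgG libraries. Its CPM values were 25.2 and 18.8, against 30.9 and 25.5, which barely failed to overlap (log2 fold change -0.36, SE 0.39, edgeR adjusted p = 0.516). Both were lower with library totals (-1.83 and -1.81, edgeR adjusted p = 0.00168 and 0.00187). Sycp3 had 58 and 53 counts against 125 and 79 in the IgG libraries. Its CPM groups overlapped, and it had 0.29 (edgeR adjusted p = 0.621) with TMM and -1.12 (edgeR adjusted p = 0.0667) with library totals.

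Meiotic cohesin rings hold sister chromatids together and replace the mitotic subunits with SMC1B, STAG3 and the kleisins REC8 and RAD21L. All 3 cohesin members tested lay below 0 with TMM without a call, and all 3 were lower with library totals, as were 52.1% of protein-coding genes. With TMM 5608 of 9932 protein-coding genes lay below 0. Stag3 had 144 and 141 counts in the LARP7 libraries, against 869 and 321 in the IgG libraries. In CPM they stood at 37.4 and 32.4, against 67.9 and 50.8, with no overlap (log2 fold change -0.77, SE 0.44, edgeR adjusted p = 0.22). Smc1b had 160 and 94 counts in the LARP7 libraries, against 504 and 332 in the IgG libraries. Its CPM values were 41.6 and 21.6, against 39.4 and 52.5, and LARP7 replicate 1 lay between the IgG libraries (-0.54, SE 0.47, edgeR adjusted p = 0.412). Rec8 had 9 and 6 counts in the LARP7 libraries, against 83 and 21 in the IgG libraries. Scaled, these were 2.34 and 1.38, against 6.48 and 3.32, with no overlap (-1.42, SE 0.66, edgeR adjusted p = 0.132). Rec8, like Spo11, would not have passed the count filter on the LARP7 libraries alone. With library totals the 3 had -2.22, -1.97 and -2.90 (edgeR adjusted p = 0.000293, 0.00094 and 0.000609). Rad21l had 2 and 0 counts against 5 and 7 in the IgG libraries and was not tested.

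Strand exchange, the search for the homologue by a broken DNA end, depends on the recombinase DMC1, on PSMC3IP with its partner MND1, and on MEIOB with SPATA22, which bind single-stranded DNA. Only Psmc3ip had enough counts of these 6 models. It had 37 and 30 counts in the LARP7 libraries, against 162 and 59 in the IgG libraries. The CPM values were 9.61 and 6.88, against 12.7 and 9.33, so the groups overlapped (log2 fold change -0.42, SE 0.44, edgeR adjusted p = 0.501). With library totals it was -1.88 (edgeR adjusted p = 0.00263). Dmc1 had 7 and 7 counts against 15 and 6 in the IgG libraries. Mnd1 had 5 and 1 against 5 and 0, and Meiob 3 and 2 against 6 and 0. The Spata22 models had 4.51 and 8.60 counts against 14.1 and 1.35, and 3 and 0 against 28.7 and 0. The posterior SD of the first reached 0.822 of its count. The annotation table places the symbol Spata22 at 1 locus, so the models could not be told apart by position.

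The crossover group was the one whose members lay mostly above 0 with TMM, in 4 of 5 cases, and in 0 of 5 with library totals. None was called with either scaling, and only for Mlh3 did the CPM groups not overlap. Of the 9932 protein-coding genes 4324 lay above 0 with TMM and 1492 with library totals. MSH4 and MSH5 form a clamp on recombination intermediates, MLH3 is part of the nuclease that resolves them, HFM1 is a helicase, and TEX11 is an X-linked partner. Mlh3 had 32.1 and 34.6 counts in the LARP7 libraries, against 74.1 and 28 in the IgG libraries. As CPM these were 8.31 and 8.03, against 5.78 and 4.43, with no overlap (log2 fold change 0.67, SE 0.47, edgeR adjusted p = 0.311). Msh5 had 10 and 10.3 counts against 30 and 1, with a log2 fold change of 0.85 (SE 0.97, edgeR adjusted p = 0.537). That value was 3.75 without IgG replicate 1 (edgeR adjusted p = 0.0829) and 0.11 without IgG replicate 2 (0.944), the widest such range of the members. Hfm1, Msh4 and Tex11 lay at 0.49, 0.23 and -0.12 on the log2 scale (edgeR adjusted p = 0.587, 0.812 and 0.915). Hfm1 lay at 13.5 and 4.13 CPM in the LARP7 libraries, against 8.51 and 3.80 CPM in the IgG libraries, a spread within each group larger than the gap between them. Rnf212, which encodes a ligase-like crossover factor, had 1.18 and 6.97 counts against 3.17 and 2.09 and was not tested. Terb1, which helps attach telomeres to the nuclear envelope, had 0 and 2.34 counts against 48.1 and 4, so that nearly all of its reads came from IgG replicate 1.

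Meiotic entry is switched on by the transcription factor STRA8, and MEIOC with the RNA helicase YTHDC2 keeps the prophase programme running. Stra8 had 7 and 11 counts in the LARP7 libraries, against 19.2 and 9 in the IgG libraries, and a log2 fold change of 0.57 (SE 0.75, edgeR adjusted p = 0.592). The sign turned with library totals (-0.82, edgeR adjusted p = 0.459). Meioc had 41 and 20 counts in the LARP7 libraries, against 167 and 83 in the IgG libraries. Its CPM values were 10.7 and 4.59, against 13.0 and 13.1, with no overlap (-0.79, SE 0.49, edgeR adjusted p = 0.25). Ythdc2 had 12 and 20 counts in the LARP7 libraries, against 77.0 and 26 in the IgG libraries. In CPM they stood at 3.12 and 4.59, against 6.01 and 4.11, and the groups overlapped (-0.40, edgeR adjusted p = 0.614).

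Ccna1, which encodes the germ cell cyclin A1 needed to leave prophase, had 26 and 8 counts in the LARP7 libraries, against 122 and 13 in the IgG libraries. Its CPM values were 6.76 and 1.84, against 9.53 and 2.06, so replicate 1 was high and replicate 2 low in each group (-0.48, SE 0.82, edgeR adjusted p = 0.69). TEX14 is needed for the stable intercellular bridges that join neighbouring germ cells. Tex14 had 42 and 46 counts in the LARP7 libraries, against 146 and 74 in the IgG libraries. Scaled, these were 10.9 and 10.6, against 11.4 and 11.7, the smallest log2 fold change of the 24 members (-0.11, SE 0.41, edgeR adjusted p = 0.868). With library totals Meioc, Ythdc2, Ccna1 and Tex14 were lower (-2.25, -1.82, -2.04 and -1.52; edgeR adjusted p = 0.000288, 0.0178, 0.00559 and 0.0126). The span of Tex14 in the RefSeq table holds 7 annotated small RNA genes, the most of any member. Whether any of its counts came from them was not tested.

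**Figure D2:**
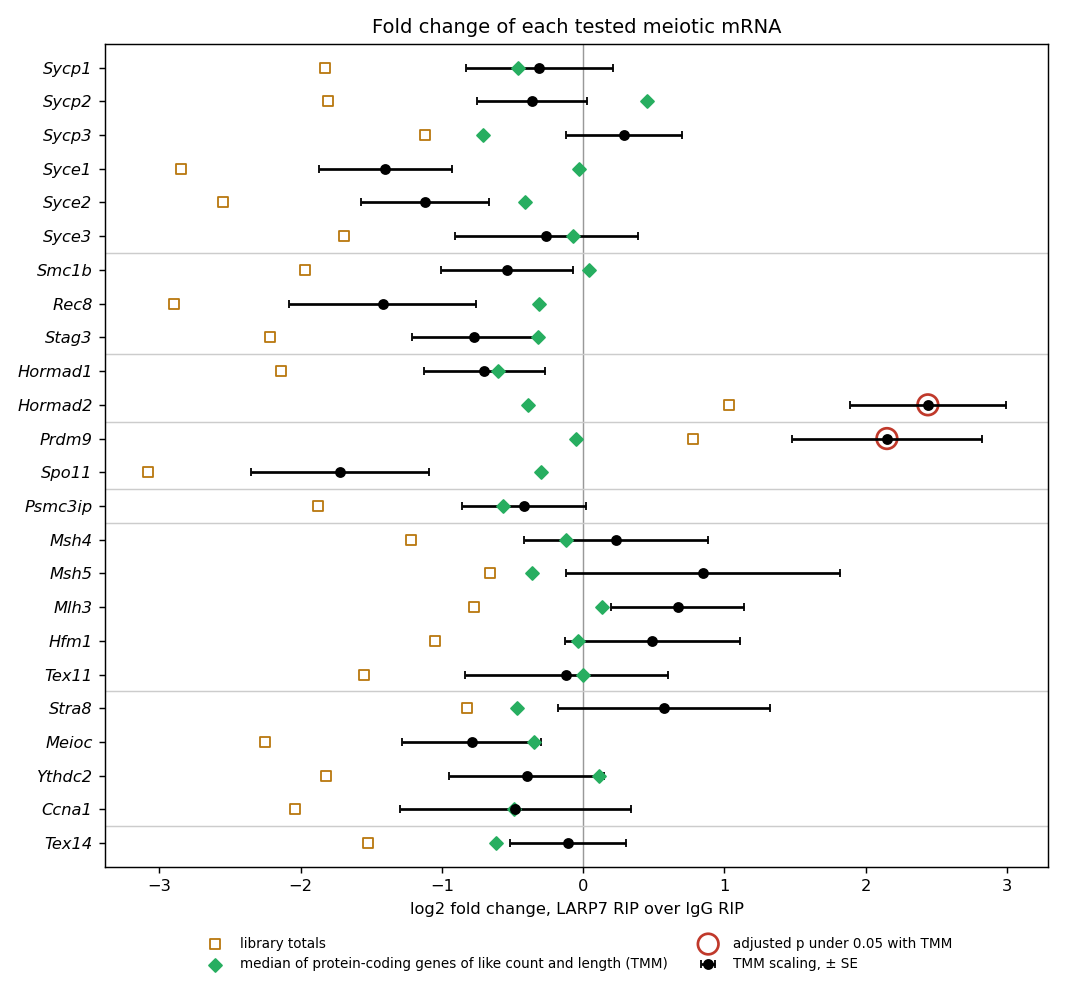
Log2 fold change, LARP7 RIP over IgG RIP, of the 24 tested members: black points with TMM scaling (bars are SE), open squares with library totals, green diamonds the median of protein-coding genes of like count and length with TMM; red rings mark adjusted p under 0.05 with TMM. Hormad2 (2.44) and Prdm9 (2.15) carry the rings, Spo11 (-1.72) is lowest, and each square lies left of its point.

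The members were then set beside protein-coding genes of like count and length. For each member these were the tested protein-coding genes whose mean CPM and model length lay within a factor of 1.5 of its own, between 45 genes for Syce1 and 1424 for Msh4. Exactly 12 members lay above the median of their like genes and 12 below. The median difference was -0.05 on the log2 scale. Hormad2 lay 2.83 above the median of its 1100 like genes (-0.39), and 2.27% of these had a larger log2 fold change. Prdm9 lay 2.20 above that of its 1392 like genes (-0.05), with 6.39% larger. At the other end Spo11 and Syce1 lay 1.42 and 1.37 lower (differences -1.42 and -1.37). Of the 7939 genes that were like any member, 9.54% were higher and 9.96% lower. Sycp2 shows how the comparison can move a reading: its log2 fold change was -0.36, and its 339 like genes had a median of 0.45.

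The other properties of the 24 members gave weak relations. Across them the log2 fold change correlated with mean log CPM at r = -0.39 (Spearman rho -0.42), with the genomic span at r = 0.30 (rho 0.43) and with model length at r = 0.15 (rho 0.17). Over the 9932 protein-coding genes the same correlations were 0.14, -0.05 and 0.18. The points share the same 4 libraries and the filter on low counts, which keeps a low member only where some libraries are high. In CPM, 4 members had both LARP7 libraries above both IgG libraries (Hormad2, Prdm9, Mlh3 and Stra8) and 9 had both below. Among all genes tested 32.9% lay above and 35.6% below in this way. In counts before scaling, 2 members lay above, Hormad2 and Prdm9, and 15 below, against 12.1% and 55.4% of all genes tested.

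The 12 models that were not tested had 3.52 to 54.4 counts summed over the 4 libraries. They were Tex12, Rad21l, Trip13, Mei1, Mei4, Dmc1, Mnd1, Meiob, Rnf212, Terb1 and the Spata22 pair. Of these, 6 were at 0 in at least 1 library. Fitted without a filter, 0 of the 12 were called by edgeR, and 1, Terb1, had an unadjusted p under 0.05. They fell below the filter, which asks for enough counts in at least 2 libraries, and the lack of a call does not show that there is no difference. Terb1 had 54.4 counts in all, more than the tested Stra8 (46.2), but 48.1 of them lay in IgG replicate 1.

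As a share of all counts the 36 models together took 0.0147% ± 0.00167 in the LARP7 RIP and 0.0562% ± 0.0149 in the IgG RIP (SD, n = 2 each). The sums were 1101 and 882 counts in the LARP7 libraries, against 4667 and 2016 in the IgG libraries. Of the protein-coding counts alone they took 0.0865% ± 0.0283 in the LARP7 RIP and 0.139% ± 0.0271 in the IgG RIP (SD, n = 2 each). The ratio of LARP7 to IgG was thus 0.262 over all counts and 0.624 over protein-coding counts. The synaptonemal complex models held 387 and 279 of these counts in the LARP7 libraries, against 1823 and 827 in the IgG libraries. The cohesin models held 315 and 241, against 1461 and 681. As shares of protein-coding counts their ratios were 0.529 and 0.542, with no overlap between the LARP7 and IgG libraries. These sums lean on few models. Syce1 alone held 122 and 77 of the synaptonemal complex counts, against 826 and 415, and no share was computed without it. Stag3 and Smc1b held most of the cohesin counts. How often the shares of other gene sets do not overlap was not computed. The crossover, HORMA, break, strand exchange and entry groups had 1.24, 1.01, 0.874, 0.803 and 0.615, all with overlap. Tex14 had 0.808 and Terb1 0.0949, without overlap. No test was made on shares; 2 libraries against 2 cannot give an exact two-sided permutation p under 0.333.

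**Figure D3:**
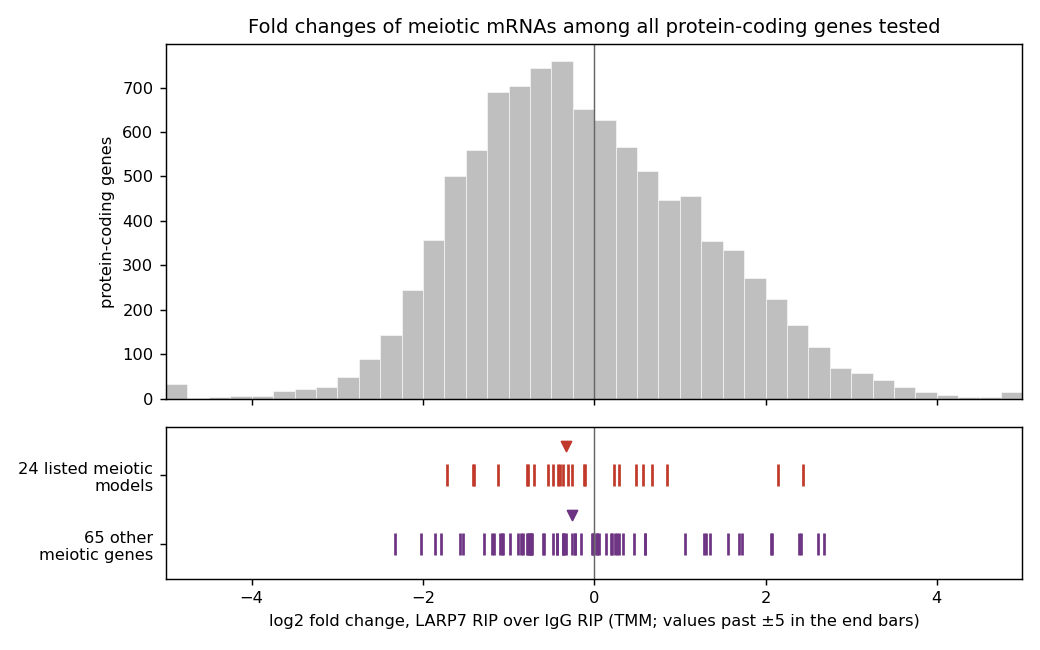
Upper panel, the number of protein-coding genes tested (9932) by log2 fold change, LARP7 RIP over IgG RIP with TMM scaling; lower panel, the 24 listed meiotic models and 65 other meiotic genes as ticks, with triangles at their medians (-0.34 and -0.26). Both sets spread over the middle of the distribution, and most ticks lie within 2 log2 units of 0.

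Genes of the same pathways that are not on the list were looked at next. A further 84 symbols of cohesin, recombination, checkpoint and meiotic progression were listed, of which 82 were matched and 65 tested. With TMM 7 were higher (10.8%) and 4 lower (6.15%), with a median log2 fold change of -0.26; of protein-coding genes 11.0% were higher and 10.5% lower. With library totals 0 were higher and 36 lower (55.4%), against 1.99% and 52.1% of protein-coding genes. The 7 higher were Exo1, Aurkb, Rad51d, Hus1, Xrcc2, Brca2 and Rad1, and each of these calls was lost with library totals. On log2(TPM + 1) all of them except Rad51d lay below 0.

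By the roles in the list, 3 of 15 strand exchange genes tested were higher and 1 lower. Of 6 crossover genes 1 was higher and 0 lower, and of 9 sex body and checkpoint genes 2 were higher and 0 lower. Of 16 entry and prophase genes 1 was higher and 2 lower, and of 9 cohesin genes 0 and 1. Over protein-coding genes tested the shares were 11.0% higher and 10.5% lower, and over all genes tested 14.5% and 9.69%. The exonuclease gene Exo1 had 15.6 and 14.9 CPM in the LARP7 libraries, against 2.73 and 1.90 CPM in the IgG libraries (log2 fold change 2.68, SE 0.47, edgeR adjusted p = 0.00656). Leaving out LARP7 replicate 1, LARP7 replicate 2, IgG replicate 1 or IgG replicate 2 gave 2.64, 2.72, 2.99 and 2.53. On log2(TPM + 0.1) Exo1 was called in the opposite direction (-1.20, limma adjusted p = 0.0438). There 6104 of the 9932 protein-coding genes were called lower. The length of Exo1 per library ran from 1024 to 7796 bases. Rad51d and Xrcc2 encode proteins that act in repair by homologous recombination. Rad51d had 47.3 and 64.9 CPM in the LARP7 libraries, against 7.81 and 13.4 CPM in the IgG libraries (2.41, SE 0.47, edgeR adjusted p = 0.00896), and was called without each library in turn. Xrcc2 had 154 and 300 CPM in the LARP7 libraries, against 40.2 and 68.5 CPM in the IgG libraries (2.06, SE 0.60, edgeR adjusted p = 0.0321). Its call was lost without LARP7 replicate 2 (edgeR adjusted p = 0.124) or IgG replicate 1 (0.128). BRCA2 is a tumour suppressor needed for the same kind of repair. Brca2 had 72.0 and 56.0 CPM in the LARP7 libraries, against 21.4 and 17.2 CPM in the IgG libraries (1.72, SE 0.44, edgeR adjusted p = 0.0216), and its call was lost without IgG replicate 1 (1.89, edgeR adjusted p = 0.0704) or IgG replicate 2 (1.63, 0.112).

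HUS1 and RAD1 are subunits of a ring-shaped checkpoint clamp. Hus1 had 16.6 and 31.4 CPM in the LARP7 libraries, against 4.92 and 6.64 CPM in the IgG libraries (2.07, SE 0.46, edgeR adjusted p = 0.0139). Rad1 had 7.80 and 10.1 CPM, against 2.97 and 2.53 CPM (1.69, SE 0.50, edgeR adjusted p = 0.0342). Hus1 lost its call without LARP7 replicate 2 (1.53, edgeR adjusted p = 0.0915), and Rad1 without any 1 of the 4 libraries (0.0689 to 0.227) and with DESeq2 (0.0502). The kinase gene Aurkb had 4.94 and 4.59 CPM, against 0.859 and 0.633 CPM (2.61, SE 0.70, edgeR adjusted p = 0.0243), not called without LARP7 replicate 1 (2.56, edgeR adjusted p = 0.136) or LARP7 replicate 2 (2.68, 0.159), where the size was close to that with all libraries. With 11 and 4 counts in the IgG libraries, Aurkb would not have passed the count filter on those libraries alone. For all 7 the LARP7 libraries lay above the IgG libraries in CPM, the scale of the calls, as for 32.9% of all genes tested. In counts before scaling this held for Exo1, Aurkb, Rad51d, Hus1 and Xrcc2, and for 12.1% of all genes tested. There Brca2 (277 and 244, against 274 and 109) and Rad1 (29.9 and 43.8, against 37.6 and 15.8) overlapped.

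The 4 lower with TMM were also lower with library totals. Plk1, which encodes a kinase of the meiotic divisions, had 1.56 and 1.61 CPM in the LARP7 libraries, against 6.01 and 10.1 CPM in the IgG libraries (-2.33, SE 0.60, edgeR adjusted p = 0.0211). That call was lost without LARP7 replicate 1 (-2.32, edgeR adjusted p = 0.0647), LARP7 replicate 2 (-2.35, 0.0937) or IgG replicate 2 (-1.86, 0.0619). Zfp541, whose protein represses transcription in late prophase, had 5.72 and 4.59 CPM, against 23.9 and 17.9 CPM (-2.02, SE 0.44, edgeR adjusted p = 0.0127), and was called without each library in turn. Sgo2a, the shugoshin that protects centromeric cohesin, had -1.79 (SE 0.59, edgeR adjusted p = 0.048), lost without any 1 of the 4 libraries (0.0734 to 0.284), with DESeq2 (0.112) and with TMM over protein-coding genes (0.0682). The fourth, Rpa1, encodes a single-strand DNA binding protein.

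**Figure D4:**
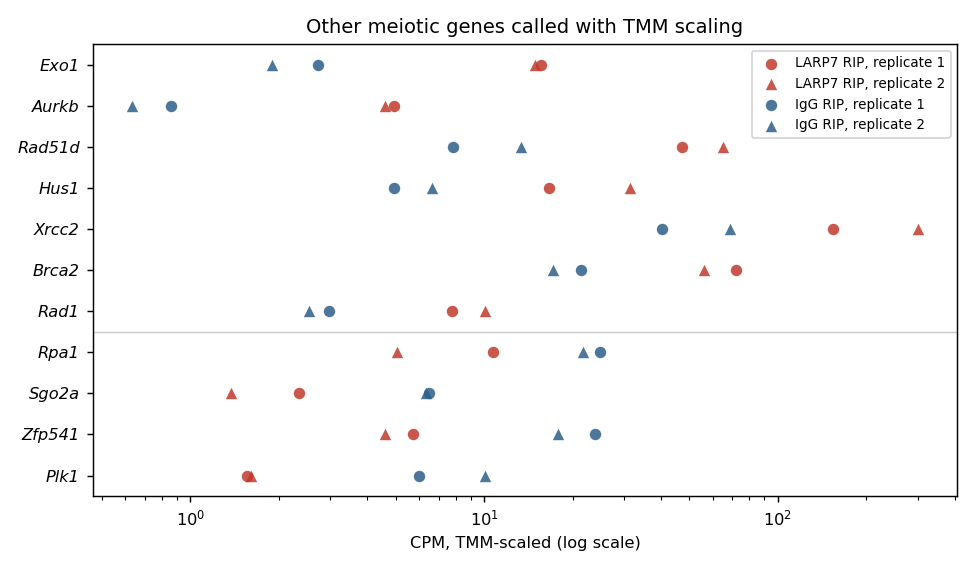
TMM-scaled CPM (log axis) of the 11 other meiotic genes called with TMM in each library; red marks are LARP7 libraries, blue marks IgG libraries, circles replicate 1 and triangles replicate 2. For the 7 genes above the grey line the LARP7 libraries lie right of the IgG libraries, and for the 4 below it they lie left, without overlap.

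Markers of the testis cell types were read beside these values. In bulk samples, fewer cells of a type and less RNA per cell cannot be told apart. Here the groups also differ in the antibody, so a marker level does not measure how many cells of a type there were. Of 8 spermatocyte markers, all above 0 in every library, 3 were lower and 0 higher with TMM (median -1.12), and their summed level was 467 and 297 CPM in the LARP7 libraries, against 893 and 644 CPM in the IgG libraries. Of 8 elongating spermatid markers 6 were lower (493 and 321 CPM, against 1320 and 1380 CPM), and of 8 round spermatid markers 2 were lower (39.2 and 29.1 CPM, against 90.5 and 93.3 CPM). Beside these and the marker calls below, 11.0% of protein-coding genes tested were higher with TMM and 10.5% lower. Of all genes tested 14.5% were higher and 9.69% lower. Of 6 spermatogonial markers tested 2 were higher (18.7 and 28.2 CPM for all 8, against 15.1 and 12.2 CPM), and Gfra1, Nanos3 and Sall4 were at 0 in IgG replicate 2. Sertoli markers summed to 45.7 and 34.2 CPM in the LARP7 libraries, against 80.7 and 71.3 CPM in the IgG libraries; 1 of 5 tested was lower, and Fshr was at 0 in both LARP7 libraries and IgG replicate 2, Amh in LARP7 replicate 2 and IgG replicate 1, and Rhox5 in LARP7 replicate 2. Leydig markers summed to 53.3 and 44.8 CPM, against 50.9 and 51.7 CPM, with 0 of 6 tested called and Lhcgr at 0 in IgG replicate 2. Peritubular, vascular and blood markers summed to 31.2 and 31.4 CPM, against 25.5 and 11.4 CPM, and 1 of 4 tested was higher. Of these, Ptprc was at 0 in both LARP7 libraries and IgG replicate 2, Hba-a1 in LARP7 replicate 2 and IgG replicate 2, and Pecam1 in IgG replicate 2. The part of these cell types in the values of the meiotic mRNAs was not tested.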

How the data were processed

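The submitters' processing notes name RSEM, Bowtie2, cutadapt and the build mm10, with no versions or settings. The authors deposited, per library and gene model, an expected count and a TPM, with the posterior SD of the count. Expected counts were rounded to whole numbers and tested with edgeR 4.0.16 (R 4.3.3): the filterByExpr filter, TMM scaling and the robust quasi-likelihood F test with antibody as the only term, two-sided, Benjamini-Hochberg adjustment over 12234 genes, threshold 0.05. SEs are the unshrunk log2 fold change over the square root of F. The test was checked on simulated data in which the libraries shared 1 composition and few genes changed, up or down. That check does not bear on the choice of scaling, which moved the values here. Biotypes, synonyms and coordinates came from the RefSeq table of GRCm38.p6, by symbol. Alternatives were library totals, TMM over protein-coding genes, other filters, DESeq2 1.42.0, limma 3.58.1 on log2(TPM + 1) and log2(TPM + 0.1) of the deposited TPM, a replicate block, and leaving out each library. The members, the lists and the tests were chosen with earlier results of these data known. Every member was to be accounted for; values per library were to be given for members called with TMM or library totals and for the 6 with the most counts, and for up to 10 other meiotic genes called, by size of change. Libraries held 4411271 to 6994514 counts, which limits what models with few counts can show.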

Additional observations from a re-analysis of the deposited data

How the results depend on the processing

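Library totals and the limma fits on TPM, which change unit, scaling and test together, moved many counts of calls. With library totals 0 members were higher and 14 lower, the members' median was -1.82, and 483 genes were higher and 5759 lower (198 and 5173 protein-coding, 0 and 36 of the other meiotic genes). Sycp3, Msh4, Msh5, Mlh3, Hfm1 and Stra8 turned to -1.12, -1.22, -0.66, -0.77, -1.05 and -0.82. With TMM over protein-coding genes the members' counts did not change, and Tex11 and Tex14 turned to 0.05 and 0.07. On log2(TPM + 1), 0 members were higher and 0 lower, as were 5 and 19 of all genes, 0 and 0 protein-coding genes, and 0 and 0 of the other meiotic genes. There Sycp3, Hormad2, Prdm9, Msh4, Msh5, Mlh3, Hfm1 and Stra8 had -0.89, -0.15, -0.05, -0.20, -0.18, -0.13, -0.25 and -0.26, and Exo1, Aurkb, Hus1, Xrcc2, Brca2 and Rad1 had -0.23, -0.04, -0.15, -0.31, -0.68 and -0.13. On log2(TPM + 0.1), 0 members were higher and 20 lower (median -1.88), as were 111 and 6823 of all genes, 9 and 6104 protein-coding genes, and 0 and 45 of the other meiotic genes. There the same 8 members had -2.02, -0.69, -0.36, -1.02, -0.93, -0.75, -1.18 and -1.30, and Exo1, Aurkb, Rad51d, Hus1, Xrcc2, Brca2 and Rad1 had -1.20, -0.21, -0.05, -0.57, -0.56, -1.08 and -0.50. DESeq2 called 1 member higher (Hormad2) and 1 lower (Syce1), and 729 of all genes and 645 protein-coding genes lower. With no filter 1 member (Hormad2) was higher and 1 (Syce1) lower, and with at least 10 counts in every library of a group 2 were higher and 1 (Syce1) lower. The replicate number as a block gave 2 members higher and 1 lower (Syce1, -1.45, adjusted p = 0.0192); the labels do not say that the numbers pair libraries, and the deviations of same-numbered libraries correlated at 0.2 over genes. Leaving out each library gave 0 to 2 members higher and 0 to 1 lower, 660 to 2138 of all genes higher and 197 to 922 lower, 381 to 1103 protein-coding genes higher and 167 to 854 lower, and 3 to 6 other meiotic genes higher and 1 to 4 lower; the members' median ran from -0.65 to 0.03. Msh5 ran from 0.11 to 3.75, Sycp1 from -0.95 to 0.40, Syce3 from -0.90 to 0.20, Msh4 from -0.02 to 0.68, Hfm1 from -0.61 to 1.21, Tex11 from -0.51 to 0.19 and Ccna1 from -1.69 to 1.05. The smallest counts were those without LARP7 replicate 2, where 660 genes were higher and 197 lower. The median difference from like genes was -0.01 with a narrower window, 0.04 with a wider one (factor 2) and -0.11 with library totals. The ratio of the members' share was 0.62 over protein-coding counts and 0.10 (0.0955) in TPM. Except where a scaling sets it by construction, the cause of a change was not tested.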
